A study of Mus musculus with 38 samples.

Results

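Imprinted genes were taken as a named list of 42 mouse genes that includes Nnat, Cdkn1c, Peg3, Peg10, Igf2r and Grb10, and the members used were those with counts above 0 in the deposited gene count table. Of the 42 genes, 19 had counts, out of 22408 genes with counts in the series, 22 were listed at 0 in every library, and Rian had no row. The list was drawn up with the loss of Nnat in the Ino80ko line already known, so that loss is described here without being read as a new result. All 42 members were chosen with earlier results of these data known, so counts of members called are descriptive.

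An imprinted gene is transcribed mainly or only from the copy inherited from one parent. The choice is set by DNA methylation laid down in the germ line at imprinting control regions and kept after fertilisation by factors such as Zfp57, Trim28 and the maintenance methylation machinery. Imprinted genes lie in clusters, many of them govern fetal and placental growth, and mouse embryonic stem cells are known to lose or change imprints in culture. The counts sum both parental copies, so they give the level of each gene and not which copy was transcribed.

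The study profiled total RNA from mouse embryonic stem cells after chemical inhibition of the SWI/SNF chromatin remodeller and in lines lacking other remodellers. BRM014 is an allosteric inhibitor of the Smarca4 and Smarca2 ATPases of SWI/SNF, Ino80 is the ATPase of the INO80 remodeller, and Snf2h, whose gene symbol is Smarca5, is an ISWI ATPase. There were 38 libraries in 19 groups of 2, in 2 experimental batches labelled 2450 and 2457. Library totals ranged over 19.3 to 23.1 M counts (M, mega) in the first batch and 21.9 to 44.5 M in the second.

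All cells were labelled with the strain 129S6/SvEvTac, and the growth protocol described culture in serum and leukemia inhibitory factor on gelatin. In the first batch wild-type cells received 10 µM BRM014 for 0.5, 1, 3, 6 or 24 h, or 10 µM of an inactive analog for 1 or 24 h. Cells exposed to BRM014 for 1 h then had it washed out for 0.5 or 1 h, and cells exposed for 24 h had it washed out for 6 or 24 h, at a dose the labels leave blank. The washouts that followed 1 h of BRM014 are not compared here. The vehicle groups received DMSO for 1 or 24 h. In the second batch cells labelled Ino80ko, Snf2hko and wild type each received 10 µM BRM014 or DMSO for 24 h. How the knockout lines were made, and whether each is 1 clone, is not stated in the labels. There was no vehicle at 0.5, 3 or 6 h and no vehicle that was washed out. The protocols name biological replicates without saying which cultures they came from, so the p-values measure the spread between these samples.

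The line labels could be checked only in part. Ino80 transcripts were lower but present in Ino80ko cells, at 119 and 125 CPM (the gene's counts over the library's total in M), against 170.2 and 173 CPM in wild-type cells, a log2 change of -0.48 ± 0.07 (SE). Ino80 was as low in Snf2hko cells, with a log2 change of -0.46 ± 0.07 against wild type, so its level did not separate the knockout lines from each other. Smarca5 was listed at 0 in all libraries and gave no check. Of 10 pluripotency markers, 9 were counted, with summed levels of 6134 to 6378 CPM in Ino80ko, 5201 to 5443 CPM in Snf2hko and 5632 to 5894 CPM in wild-type cells under DMSO for 24 h in the second batch, while Sox2 was listed at 0.

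The 22 members listed at 0 were H19, Igf2, Kcnq1ot1, Kcnq1, Airn, Usp29, Ppp1r9a, Mest, Meg3, Mirg, Snrpn, Snurf, Ndn, Magel2, Ube3a, Peg13, Trappc9, Gnas, Mcts2, Zrsr1, Impact and Inpp5f. In the GENCODE M21 annotation each of these 22 either has a single exon or overlaps another gene on the same strand: 6 have a single exon and 18 overlap such a gene. None of the 19 counted members does either. Genes that embryonic stem cells are known to use, such as Sox2 and Smarca4, were also at 0, so a member at 0 is named here without any statement about its expression. The values therefore cover 12 of 20 imprinted clusters, with 8 counted members listed as expressed from the paternal copy and 11 from the maternal copy. Statements below on which copy a gene is expressed from follow this listing. The copy transcribed in these cells was not measured. Among the counted members, 7 overlap a gene on the opposite strand (Nnat, Cdkn1c, Igf2r, Slc22a3, Copg2, Plagl1 and Zdbf2), and the strand setting of the authors' counting was not given in the sources used here.

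Stretches before the start sites of 5 members described below are printed: Nnat and Peg3, the members with the lowest levels relative to wild type in Ino80ko cells, and Ascl2, Slc22a18 and Phlda2, neighbours in the Kcnq1ot1 cluster that were lower under BRM014. Each is the 250 bases before the RefSeq start on GRCm38.p6, written 5′ to 3′ on the gene's own strand, with capitals marking CG dinucleotides, the bases at which mammalian DNA is methylated. They lie at chr2:157559828-157560077 (+) for Nnat, chr7:6730420-6730669 (-) for Peg3, chr7:142969265-142969514 (-) for Ascl2, chr7:143473539-143473788 (+) for Slc22a18 and chr7:143502525-143502774 (-) for Phlda2. The RefSeq start is the outer end of the GENCODE gene for Nnat and Ascl2, and lies inside that gene by 12 bases for Peg3, 53 for Slc22a18 and 626 for Phlda2. Gene coordinates and distances between genes below are those of GENCODE M21.
Nnat: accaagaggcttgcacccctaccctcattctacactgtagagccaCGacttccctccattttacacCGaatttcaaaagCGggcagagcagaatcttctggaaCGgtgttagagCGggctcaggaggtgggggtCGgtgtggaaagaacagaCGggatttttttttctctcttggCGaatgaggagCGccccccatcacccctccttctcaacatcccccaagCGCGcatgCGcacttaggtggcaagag
Peg3: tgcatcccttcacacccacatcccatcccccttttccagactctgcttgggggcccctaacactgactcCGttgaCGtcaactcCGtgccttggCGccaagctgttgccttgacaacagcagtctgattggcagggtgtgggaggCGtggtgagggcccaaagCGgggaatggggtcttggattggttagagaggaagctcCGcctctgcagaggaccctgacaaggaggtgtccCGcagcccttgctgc
Ascl2: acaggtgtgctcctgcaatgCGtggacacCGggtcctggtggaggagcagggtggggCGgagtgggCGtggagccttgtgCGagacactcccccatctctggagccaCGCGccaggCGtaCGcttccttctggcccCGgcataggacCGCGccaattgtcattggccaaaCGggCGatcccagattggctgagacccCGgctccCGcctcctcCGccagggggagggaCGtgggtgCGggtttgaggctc
Slc22a18: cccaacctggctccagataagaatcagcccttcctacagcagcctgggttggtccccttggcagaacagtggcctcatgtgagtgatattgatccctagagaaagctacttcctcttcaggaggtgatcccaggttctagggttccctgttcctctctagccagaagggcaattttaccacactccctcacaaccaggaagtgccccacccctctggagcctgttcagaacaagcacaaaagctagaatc
Phlda2: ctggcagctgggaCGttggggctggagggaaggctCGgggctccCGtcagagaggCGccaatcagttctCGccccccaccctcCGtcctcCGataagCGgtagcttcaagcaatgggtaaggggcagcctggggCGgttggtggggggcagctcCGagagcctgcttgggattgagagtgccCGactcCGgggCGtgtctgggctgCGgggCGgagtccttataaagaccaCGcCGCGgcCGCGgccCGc

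The 5 windows differed widely in CG content. Phlda2 had 21 CG dinucleotides, more than 83.7% of the 32851 windows of this length in the RefSeq table, and Ascl2 had 19, more than 80.3% of them. Nnat had 12, Peg3 had 8 and Slc22a18 had 0, against a median of 6 over all windows. The sequence TGCCGC, which Zfp57 is known to bind when its CG is methylated, was searched on both strands. It was in none of the 5 windows, in 8 of 49 windows of the members matched in the table (33 members, 15 of them counted) and in 8.7% of all windows. Some member windows overlap or are shared between members, so the 49 are not separate stretches. The windows were placed by start site and not by imprinting control region. Among the counted members Cdkn1c, Peg10, Sgce and Dcn were not matched.

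Levels per length were spread over several orders of magnitude. In wild-type cells under DMSO for 24 h in the second batch, Phlda2, a pleckstrin homology protein that restrains placental growth, averaged 85.6 ± 1.25 RPKM (CPM divided by kilobases of exon, SD, n = 2). Grb10, an adaptor that dampens insulin receptor signalling, averaged 81.6 ± 1.01 RPKM. The first batch gave the other order for this pair, with 83.5 ± 15.1 RPKM for Phlda2 and 125 ± 11.3 RPKM for Grb10 (SD, n = 2 each).

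Next in the second batch were Peg10 at 55.6 ± 5.18 RPKM and Cdkn1c at 53.4 ± 2.06 RPKM, which did not differ beyond their spread. Igf2r averaged 27.0 ± 0.78 RPKM, Copg2 18.7 ± 1.84 RPKM, Peg3 12.5 ± 0.60 RPKM and Zdbf2 10.6 ± 2.02 RPKM, with Peg3 and Zdbf2 within their spread of each other. A lower tier held Nnat at 5.67 ± 0.48 RPKM and Ascl2 at 3.72 ± 0.33 RPKM, and Slc22a18, Dlk1, Plagl1 and Sgce lay between 1.67 and 0.358 RPKM. Asb4 and Zim1 averaged 0.146 and 0.0827 RPKM, and Dcn, Rasgrf1 and Slc22a3 were below 0.02 RPKM. Slc22a3, an organic cation transporter, had 27 counts in all over the 38 libraries and was tested in no comparison.

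**Figure D1:**
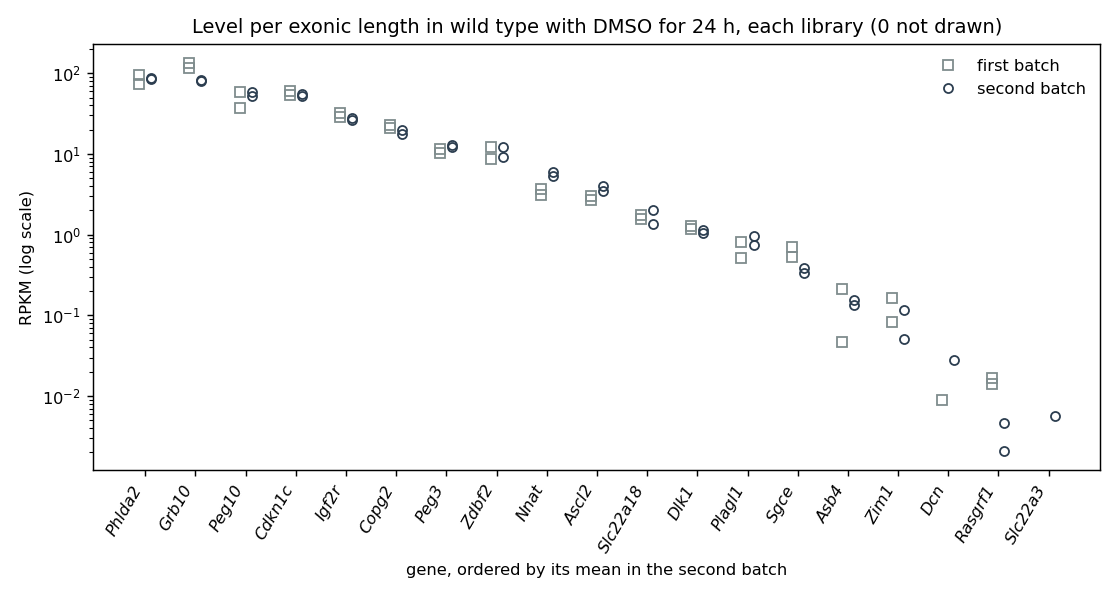
RPKM (y axis, log scale) of each counted imprinted gene (x axis) in each wild-type library under DMSO for 24 h, with the 2 batches marked separately and libraries at 0 not drawn. Phlda2 and Grb10 lead in both batches, and the order from Copg2 down to Zim1 is the same in both.

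Genes were tested in each batch with edgeR's quasi-likelihood test, p-values were adjusted by the Benjamini-Hochberg method over all genes tested, and genes with an adjusted p under 0.05 count as called. Changes are log2 ratios given ± SE with those adjusted p-values. Large shares of all genes were called in most comparisons, so each count of members is given beside that share.

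In Ino80ko cells against wild-type cells under DMSO, 18 members were tested, among them Nnat, which is left out of the counts here because its loss was known when the list was drawn up. The other 17 were also chosen with earlier results of these data known, so their counts are descriptive. Of the other 17 members 10 were called, 6 higher and 4 lower, where 45.0% of all genes tested were called (22.1% higher and 22.9% lower). At a change of at least 2-fold 5 were called, 1 higher and 4 lower, where 12.6% of all genes tested met both conditions. The median log2 change of the 17 members was 0.12, against 0.00 over all genes tested. Paternally expressed members had 4 higher and 1 lower of 7, and maternally expressed members had 2 higher and 3 lower of 10 tested.

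Nnat, which encodes neuronatin, a small membrane protein of the endoplasmic reticulum, is at chr2:157560078-157562522 (+) on GRCm38. It had 0 CPM in both Ino80ko libraries, against 10.99 and 9.74 CPM in the wild-type libraries. That is 0 counts over the Ino80ko group, which allows up to 3 for counting error only, against 851 over the wild-type group. No test is given for this loss. With BRM014 the Ino80ko libraries had 0.0247 and 0 CPM, 1 count in all, against 2.11 and 1.82 CPM in wild-type cells with BRM014. The Ino80ko libraries stayed at or near 0 under both treatments. In such bulk samples fewer cells transcribing a gene and less RNA per cell cannot be told apart.

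Peg3, a zinc finger gene at chr7:6703892-6730431 (-) expressed from the paternal copy, had 44.8 and 44.3 CPM in Ino80ko cells, against 164 and 176 CPM in wild-type cells. It fell by 1.92 ± 0.07 on the log2 scale (adjusted p = 3.44e-13), with no overlap of libraries. Its maternally expressed neighbour Zim1, another zinc finger gene, had 1.02 and 1.17 CPM in Ino80ko cells, against 0.407 and 0.930 CPM in wild-type cells, and was not called.

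In the Kcnq1ot1 cluster on chromosome 7, whose counted members are all expressed from the maternal copy, the directions were mixed. Phlda2 (chr7:143501545-143503150, -) had 47.8 and 47.1 CPM in Ino80ko cells, against 95.0 and 97.0 CPM in wild-type cells, and fell by 1.01 ± 0.10 (adjusted p = 2.64e-07). Slc22a18 (chr7:143473736-143499334, +), a solute carrier of the organic cation transporter family whose start lies 29414 bases from that of Phlda2, had 6.07 and 6.12 CPM in Ino80ko cells, against 3.41 and 2.28 CPM in wild-type cells. It rose by 1.11 ± 0.23 (adjusted p = 0.000538).

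Ascl2 (chr7:142966829-142969264, -), a basic helix-loop-helix factor needed by the trophoblast, had 2.68 and 2.13 CPM in Ino80ko cells, against 6.41 and 5.65 CPM in wild-type cells. It fell by 1.32 ± 0.23 (adjusted p = 0.00012), and its libraries did not overlap. Cdkn1c (chr7:143458339-143461050, -), the cyclin-dependent kinase inhibitor p57, had 114 and 119 CPM in Ino80ko cells, against 112 and 106 CPM in wild-type cells, a log2 change of 0.11 ± 0.09 that was not called (adjusted p = 0.36). So Cdkn1c stood at its wild-type level within error while Phlda2, 42100 bases away by start site, was lower.

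In the Peg10-Sgce cluster on chromosome 6 the paternally expressed pair was higher. Peg10 (chr6:4747306-4760517, +), a gene derived from a retrotransposon and needed by the placenta, had 602 and 619 CPM in Ino80ko cells, against 346 and 395 CPM in wild-type cells, and rose by 0.73 ± 0.09 (adjusted p = 4.24e-06). Sgce (chr6:4674350-4747207, -), which encodes epsilon-sarcoglycan and starts 99 bases from Peg10 in the opposite direction, had 6.14 and 5.23 CPM in Ino80ko cells, against 3.54 and 4.07 CPM in wild-type cells. It rose by 0.59 ± 0.14 (adjusted p = 0.00265). Both genes had their wild-type libraries below their Ino80ko libraries.

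The maternally expressed Asb4 (chr6:5383386-5433022, +), an ankyrin repeat and SOCS box gene, had 0.280 and 0.263 CPM in Ino80ko cells, against 0.611 and 0.535 CPM in wild-type cells. Its log2 change of -1.06 ± 0.38 was called (adjusted p = 0.0292), but the call was lost without any one of these 4 libraries, with adjusted p-values of 0.0523 to 0.129.

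Rises in Ino80ko cells were called for 3 further members. Plagl1, a zinc finger growth regulator, had 10.4 and 10.5 CPM in Ino80ko cells, against 5.85 and 7.56 CPM in wild-type cells (log2 change 0.64 ± 0.16, adjusted p = 0.00312). Zdbf2, a zinc finger gene with a role in growth, had 205 and 212 CPM in Ino80ko cells, against 116 and 152 CPM in wild-type cells (0.64 ± 0.15, adjusted p = 0.00616). Grb10 had 881 and 862 CPM in Ino80ko cells, against 735 and 748 CPM in wild-type cells (0.24 ± 0.06, adjusted p = 0.00274). None of these 3 had overlapping libraries.

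Igf2r, Copg2, Dlk1, Dcn and Rasgrf1 were not called in Ino80ko cells. Igf2r, the receptor that carries Igf2 to the lysosome, had 267 and 254 CPM in Ino80ko cells, against 256 and 246 CPM in wild-type cells.

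**Figure D2:**
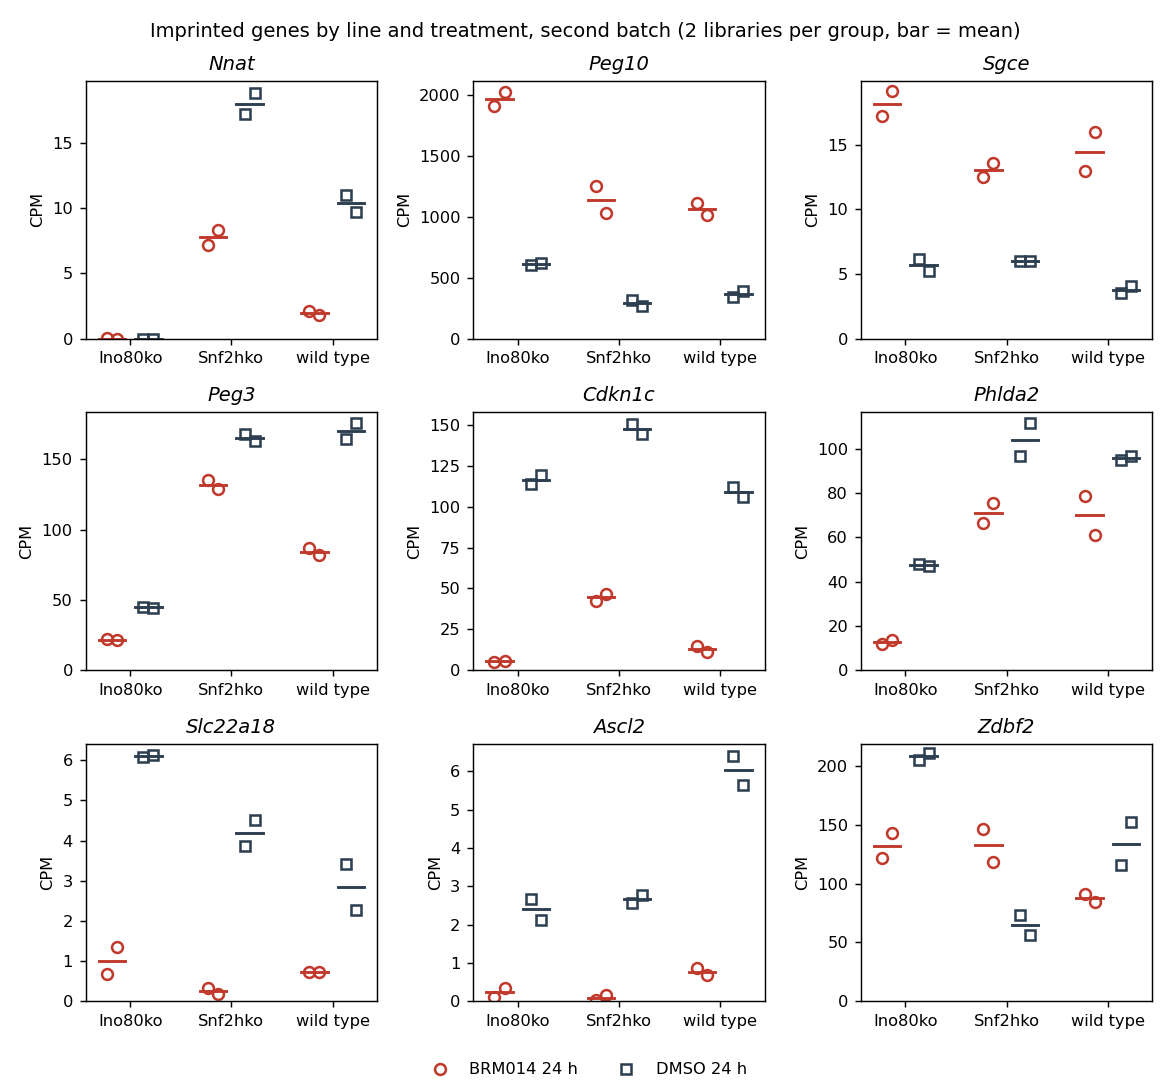
CPM of 9 imprinted genes in each library of the second batch, with Ino80ko, Snf2hko and wild-type cells from left to right, BRM014 libraries as red circles to the left of DMSO libraries as dark squares, and bars at the group means. Nnat lies at 0 or 0.0247 CPM in the Ino80ko libraries, Peg3 is lowest in Ino80ko cells, and Peg10 and Sgce are higher under BRM014 than under DMSO in all 3 genotypes.

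In Snf2hko cells against wild-type cells under DMSO, 11 of 18 members were called, 5 higher and 6 lower, where 56.5% of all genes tested were called (28.9% higher and 27.7% lower). The share of members was therefore close to that of all genes, and the median log2 change of the members was -0.10, against 0.00 over all genes tested. The 5 higher include Rasgrf1, which the filter on low counts keeps by groups where it is high, this one among them.

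Nnat had 17.2 and 18.8 CPM in Snf2hko cells, against 10.99 and 9.74 CPM in wild-type cells. It rose by 0.76 ± 0.13 (adjusted p = 8.33e-05), and both Snf2hko libraries lay above both wild-type libraries. Cdkn1c had 151 and 145 CPM in Snf2hko cells, against 112 and 106 CPM in wild-type cells, and rose by 0.40 ± 0.09 (adjusted p = 0.00101).

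Sgce had 6.04 and 6.03 CPM in Snf2hko cells, against 3.54 and 4.07 CPM in wild-type cells, and rose by 0.63 ± 0.14 (adjusted p = 0.000989). Grb10 had 954 and 974 CPM in Snf2hko cells, against 735 and 748 CPM in wild-type cells, and rose by 0.34 ± 0.06 (adjusted p = 8.07e-05). Rasgrf1, a Ras exchange factor, had 0.428 and 0.517 CPM in Snf2hko cells, against 0.0509 and 0.0233 CPM in wild-type cells. These are 41 counts in Snf2hko cells, against 3 in wild-type cells, a ratio of 13.01 with a counting interval of 4.15 to 65.7. The fitted log2 change of 3.55 was 4.14 without the first wild-type library. The filter on low counts keeps a gene by the groups where it is high, and the Snf2hko group compared is such a group. No p-value is therefore given for Rasgrf1.

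Of the members that were lower in Snf2hko cells, Dlk1, a transmembrane protein related to Notch ligands, had 2.76 and 2.56 CPM in Snf2hko cells, against 5.95 and 6.39 CPM in wild-type cells. It fell by 1.25 ± 0.17 (adjusted p = 3.71e-06). Ascl2 had 2.57 and 2.77 CPM in Snf2hko cells, against 6.41 and 5.65 CPM in wild-type cells, and fell by 1.21 ± 0.23 (adjusted p = 0.000147). Both genes had separate groups of libraries.

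Zdbf2 had 73.0 and 56.5 CPM in Snf2hko cells, against 116 and 152 CPM in wild-type cells, and fell by 1.09 ± 0.16 (adjusted p = 0.00016). Igf2r had 149.8 and 155 CPM in Snf2hko cells, against 256 and 246 CPM in wild-type cells, and fell by 0.76 ± 0.08 (adjusted p = 8.45e-08).

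The remaining calls in Snf2hko cells were less stable. Peg10 had 320.1 and 271 CPM in Snf2hko cells, against 346 and 395 CPM in wild-type cells, with a log2 change of -0.37 ± 0.09 (adjusted p = 0.0028). Without the second Snf2hko library or the second wild-type library it was not called (adjusted p = 0.076 and 0.0546). Copg2, a subunit of the coatomer of Golgi vesicles, changed by -0.28 ± 0.07 (adjusted p = 0.00386) and was not called without the second wild-type library (adjusted p = 0.0764).

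Peg3 and Phlda2 were not called in Snf2hko cells. Peg3 had 168 and 163 CPM in Snf2hko cells, against 164 and 176 CPM in wild-type cells. Phlda2 had 96.6 and 112 CPM in Snf2hko cells, against 95.0 and 97.0 CPM in wild-type cells.

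Set directly against each other, Ino80ko and Snf2hko cells differed in 13 of the 17 members other than Nnat, 8 higher and 5 lower in Ino80ko cells, where 57.4% of all genes tested were called (28.3% higher and 29.1% lower). The 5 lower include Rasgrf1, with the same limit from the filter as above. Peg3 was lower by 1.85 and Phlda2 by 1.09 on the log2 scale in Ino80ko cells than in Snf2hko cells. Zdbf2 was higher by 1.74, Dlk1 by 1.16, Peg10 by 1.10, Igf2r by 0.82 and Plagl1 by 0.77. Calls for Cdkn1c, Slc22a18, Zim1, Asb4 and Rasgrf1 in this comparison were each lost without at least 1 library. For Cdkn1c that was the first Ino80ko or the first Snf2hko library, for Slc22a18 either Ino80ko library or the first Snf2hko library, for Zim1 the second Ino80ko or either Snf2hko library, for Asb4 any of the 4, and for Rasgrf1 the first Ino80ko library. Their adjusted p-values then lay between 0.0573 and 0.174.

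Markers of other cell types also moved between the lines. Of 10 extraembryonic endoderm markers, 9 were counted and Pdgfra was at 0, and their summed level under DMSO was 105 to 116 CPM in Ino80ko, 1420 to 1431 CPM in Snf2hko and 210.1 to 210.2 CPM in wild-type cells. Against wild type, 0 of the 8 tested were higher and 6 lower in Ino80ko cells, where 22.9% of all genes tested were lower, and 8 were higher and 0 lower in Snf2hko cells, where 28.9% of all genes tested were higher.

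Of 10 trophoblast markers, which include the member Ascl2, 9 were counted and Gata3 was at 0, with sums of 14.0 to 14.0 CPM in Ino80ko, 44.9 to 47.0 CPM in Snf2hko and 20.02 to 22.7 CPM in wild-type cells. In Ino80ko cells 0 of the 6 tested were higher and 3 lower (Ascl2, Plet1 and Krt7), where 22.1% of all genes tested were higher and 22.9% lower. In Snf2hko cells they went opposite ways: Cdx2, Eomes and Plet1 were higher by 2.09, 1.96 and 1.59 on the log2 scale, while Ascl2 and Krt7 were lower by 1.21 and 1.13. Plet1 alone averaged 25.2 CPM of the Snf2hko sum. The part of both marker lists in the imprinted-gene differences between lines was not tested.

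BRM014 for 24 h was compared with DMSO for 24 h in all 8 such wild-type libraries, in a fit that takes up the batch. Of 16 members tested, 12 were called, 5 higher and 7 lower, where 49.6% of all genes tested were called (24.8% higher and 24.8% lower). The median log2 change was -0.37 for the members, against 0.00 for all genes tested. The 4 tested members of the Kcnq1ot1 cluster were all lower, and the 3 tested members of the Peg10-Sgce cluster were all higher. In the first batch alone 3 of those 4 were called lower and 2 of those 3 higher. In the Peg3 cluster 1 of 2 tested members was lower, and every other cluster had only 1 tested member. By parental copy, 3 of 7 paternally expressed members were higher and 2 lower, and 2 of 9 maternally expressed members were higher and 5 lower. Values are given for the first and then the second batch.

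Ascl2 had 0.590 and 0.951 CPM with BRM014, against 4.41 and 4.91 CPM with DMSO in the first batch, and 0.858 and 0.683 CPM with BRM014, against 6.41 and 5.65 CPM with DMSO in the second. It fell by 2.75 ± 0.20 (adjusted p = 8.34e-09). Cdkn1c had 32.9 and 32.1 CPM with BRM014, against 122 and 111 CPM with DMSO in the first batch, and 14.7 and 11.03 CPM with BRM014, against 112 and 106 CPM with DMSO in the second. It fell by 2.41 ± 0.27 (adjusted p = 0.000542). For both genes every treated library lay below every vehicle library.

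The fall of Cdkn1c differed in size between the batches. It was 3.03 ± 0.11 on the log2 scale in the second batch and 1.81 ± 0.16 in the first, a difference in log2 change of -1.21 ± 0.15 (adjusted p = 0.000188). That test called 2 of 16 members, where 3.46% of all genes tested were called. The other was Grb10, with a difference of 0.50 ± 0.11 (adjusted p = 0.0167) that was lost without any of 6 of the 8 libraries (adjusted p = 0.0583 to 0.124).

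Slc22a18 had 0.590 and 1.25 CPM with BRM014, against 3.01 and 2.64 CPM with DMSO in the first batch, and 0.735 and 0.729 CPM with BRM014, against 3.41 and 2.28 CPM with DMSO in the second. It fell by 1.76 ± 0.25 (adjusted p = 2.05e-05), without overlap. Phlda2 was lower by 0.40 ± 0.09 (adjusted p = 0.00125), with 78.6 and 61.2 CPM with BRM014, against 95.0 and 97.0 CPM with DMSO in the second batch. In the first batch alone its log2 change was -0.37 and was not called (adjusted p = 0.149). Phlda2 thus changed much less than the other 3 tested members of its cluster.

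Nnat had 2.21 and 2.00 CPM with BRM014, against 6.82 and 5.74 CPM with DMSO in the first batch, and 2.11 and 1.82 CPM with BRM014, against 10.99 and 9.74 CPM with DMSO in the second. It fell by 1.99 ± 0.17 (adjusted p = 7.87e-08). Peg3 had 101 and 92.1 CPM with BRM014, against 142 and 156 CPM with DMSO in the first batch, and 86.8 and 81.7 CPM with BRM014, against 164 and 176 CPM with DMSO in the second. It fell by 0.79 ± 0.08 (adjusted p = 6.65e-07). Neither gene had overlapping libraries.

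Peg10 and Sgce had the largest fitted rises over both batches, and these did not differ beyond their errors. Peg10 had 1626 and 1547 CPM with BRM014, against 250.1 and 391 CPM with DMSO in the first batch, and 1115 and 1013 CPM with BRM014, against 346 and 395 CPM with DMSO in the second. It rose by 1.94 ± 0.22 (adjusted p = 0.000569). Its divergent neighbour Sgce had 17.4 and 16.0 CPM with BRM014, against 5.57 and 7.39 CPM with DMSO in the first batch, and 12.96 and 16.0 CPM with BRM014, against 3.54 and 4.07 CPM with DMSO in the second. It rose by 1.68 ± 0.14 (adjusted p = 5.88e-08). Both genes were separate from vehicle in each batch.

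Asb4 had 0.935 and 1.10 CPM with BRM014, against 0.186 and 0.827 CPM with DMSO in the first batch, and 1.05 and 1.05 CPM with BRM014, against 0.611 and 0.535 CPM with DMSO in the second. Its log2 change of 0.97 ± 0.34 (adjusted p = 0.0266) was lost within the first batch alone (adjusted p = 0.102). It was also lost without the second BRM014 or the first DMSO library of the first batch, or the first BRM014 or the second DMSO library of the second (adjusted p = 0.0618 to 0.0787).

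Plagl1 had 16.0 and 14.07 CPM with BRM014, against 3.99 and 6.25 CPM with DMSO in the first batch, and 11.3 and 9.61 CPM with BRM014, against 5.85 and 7.56 CPM with DMSO in the second. It rose by 1.10 ± 0.19 (adjusted p = 0.000351). Igf2r rose by 0.33 ± 0.07 (adjusted p = 0.000796) and Copg2 fell by 0.40 ± 0.07 (adjusted p = 0.000271). Dlk1, Grb10, Zdbf2 and Zim1 were not called over both batches.

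Within the first batch and then the second, the log2 change was -2.56 and -2.90 for Ascl2, -1.59 and -1.92 for Slc22a18, -1.54 and -2.35 for Nnat and -0.59 and -0.99 for Peg3. It was 2.34 and 1.55 for Peg10, 1.401 and 1.94 for Sgce and 1.59 and 0.68 for Plagl1. Each of these was called in both batches, in the same direction.

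Some of the members not called over both batches were called within 1 batch. Among the 16 members tested in the first batch alone 12 were called, where 45.8% of all genes tested were called, and Grb10 was lower there by 0.37 (adjusted p = 9.15e-06) and Zim1 lower by 1.73 (adjusted p = 0.0225). Of the 18 tested in the second alone 13 were called, where 42.3% of all genes tested were called, and Zdbf2 was lower there by 0.58 (adjusted p = 0.0124). The trophoblast markers, with Ascl2 among them, summed to 16.8 to 17.3 CPM with BRM014, against 25.6 to 25.7 CPM with DMSO in the first batch, and to 12.2 to 13.4 CPM with BRM014, against 20.02 to 22.7 CPM with DMSO in the second. In the inactive analog libraries of the first batch the sum was 14.7 to 17.1 CPM, as low as with BRM014. The markers went opposite ways with BRM014: over both batches Hand1 and Eomes were higher by 2.96 and 0.50 on the log2 scale, and Krt7, Ascl2 and Plet1 were lower, Ascl2 by 2.75 and Plet1 by 1.22. Their part in the fall of Ascl2 and its neighbours was not tested.

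**Figure D3:**
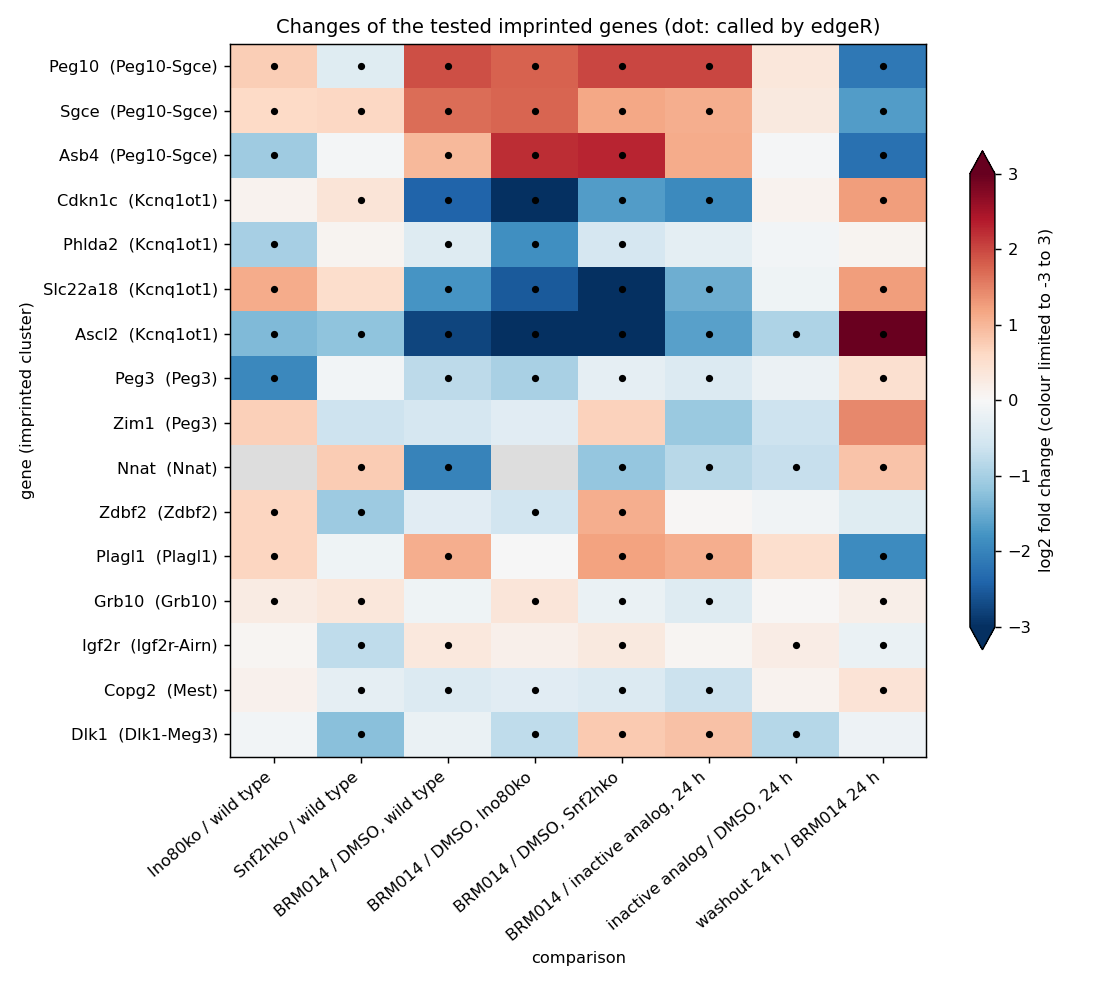
Fitted log2 changes of 16 imprinted genes (rows) in 8 comparisons (columns), with colours limited to 3 in either direction, a dot where the adjusted p was under 0.05, and grey where no fold is given. The Kcnq1ot1 members are lower and Peg10, Sgce and Asb4 higher under BRM014 in each genotype, and both Nnat cells for the Ino80ko line are grey.

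With BRM014 in Ino80ko cells, set against DMSO in Ino80ko cells, 12 of 18 members were called, 4 higher and 8 lower, where 44.5% of all genes tested were called (22.0% higher and 22.6% lower). With BRM014 in Snf2hko cells, set against DMSO in Snf2hko cells, 16 of 18 were called, 8 in each direction, where 56.9% of all genes tested were called (28.7% higher and 28.2% lower). The 8 higher include Dcn, which the filter on low counts keeps by groups where it is high, this one among them. In both lines the 4 members of the Kcnq1ot1 cluster were lower and the 3 of the Peg10-Sgce cluster higher, as in wild-type cells.

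The size of the BRM014 change differed from that in wild-type cells for 2 of 18 members in Ino80ko cells, where 9.03% of all genes tested differed, and for 12 of 18 in Snf2hko cells, where 32.6% of all genes tested differed. The 12 also include Dcn, with the same limit. These are tests of the difference between the log2 changes, within the second batch, and the same wild-type libraries serve both.

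In Ino80ko cells both differing members were in the Kcnq1ot1 cluster. Cdkn1c had 4.98 and 5.55 CPM with BRM014, against 114 and 119 CPM with DMSO, and fell by 4.39 ± 0.11 (adjusted p = 7.69e-16), further than in wild-type cells by 1.36 ± 0.15 (adjusted p of the difference = 1.13e-05). Between the batches the change of Cdkn1c in wild-type cells alone differed by -1.21, and Ino80ko cells were in the second batch only. Phlda2 had 11.8 and 13.3 CPM with BRM014, against 47.8 and 47.1 CPM with DMSO, and fell by 1.84 ± 0.11 (adjusted p = 1.43e-10), further than in wild-type cells by 1.41 ± 0.15 (adjusted p of the difference = 8.32e-06). The lowest levels of both genes in the series were in the Ino80ko libraries with BRM014.

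Slc22a18 in Ino80ko cells had 0.666 and 1.34 CPM with BRM014, against 6.07 and 6.12 CPM with DMSO, and fell by 2.52 ± 0.26 (adjusted p = 1.69e-07). Ascl2 had 0.123 and 0.359 CPM with BRM014, against 2.68 and 2.13 CPM with DMSO, and fell by 3.21 ± 0.36 (adjusted p = 5.12e-07), or by 2.66 without the first and 4.15 without the second BRM014 library. For these the change was not called as different from that in wild-type cells.

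Peg10 in Ino80ko cells had 1914 and 2029 CPM with BRM014, against 602 and 619 CPM with DMSO, and rose by 1.77 ± 0.10 (adjusted p = 2.29e-11). These were the highest Peg10 levels in the series. Sgce had 17.2 and 19.1 CPM with BRM014, against 6.14 and 5.23 CPM with DMSO, and rose by 1.75 ± 0.13. Peg3 had 22.0 and 21.1 CPM with BRM014, against 44.8 and 44.3 CPM with DMSO, and fell by 0.97 ± 0.07, so the lowest Peg3 values in the series came from these Ino80ko libraries.

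Asb4 in Ino80ko cells had 1.21 and 1.22 CPM with BRM014, against 0.280 and 0.263 CPM with DMSO, and rose by 2.22 ± 0.34 (adjusted p = 2.22e-05). Dlk1 had 2.93 and 3.56 CPM with BRM014, against 6.35 and 5.21 CPM with DMSO, and fell by 0.75 ± 0.17 (adjusted p = 0.00105). Plagl1, which rose in wild-type cells, had 8.38 and 11.2 CPM with BRM014, against 10.4 and 10.5 CPM with DMSO, and was not called, though the difference from wild-type cells was not called either. Zdbf2 was called lower by 0.58 ± 0.15 (adjusted p = 0.011), a call lost without the first BRM014 or the second DMSO library of Ino80ko cells (adjusted p = 0.0959 and 0.0501).

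In Snf2hko cells the fall of Cdkn1c was smaller than in wild-type cells of the same batch. It had 42.3 and 46.5 CPM with BRM014, against 151 and 145 CPM with DMSO, and fell by 1.69 ± 0.09, a difference in log2 change from wild-type cells of 1.34 ± 0.14 (adjusted p = 7.12e-07). Nnat had 7.19 and 8.35 CPM with BRM014, against 17.2 and 18.8 CPM with DMSO, and fell by 1.17 ± 0.13, a difference of 1.18 ± 0.22 (adjusted p = 0.000511). Peg3 had 135 and 129 CPM with BRM014, against 168 and 163 CPM with DMSO, and fell by 0.28, a difference of 0.71 ± 0.09 (adjusted p = 1.34e-05). All 3 genes kept more of their vehicle level than in wild-type cells of this batch. In wild-type cells of the first batch the falls of all 3 were smaller than in the second. For Cdkn1c that difference between batches was -1.21 in log2 change, against 1.34 between Snf2hko and wild-type cells.

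Slc22a18 went the other way in Snf2hko cells, with 0.325 and 0.183 CPM with BRM014, against 3.86 and 4.50 CPM with DMSO. It fell by 4.01 ± 0.34 (adjusted p = 9.5e-09), further than in wild-type cells by 2.09 ± 0.52 (adjusted p of the difference = 0.00486). Ascl2 had 0.0270 and 0.160 CPM with BRM014, against 2.57 and 2.77 CPM with DMSO, and fell by 4.67 ± 0.42 (adjusted p = 2.07e-08), or fell by 3.99 without the first and fell by 6.42 without the second BRM014 library. Its difference from wild-type cells of -1.77 ± 0.61 (adjusted p = 0.0338) was lost without the first BRM014 or second DMSO library of Snf2hko cells, or the first BRM014 or second DMSO library of wild-type cells (adjusted p = 0.0594 to 0.227), and was -3.54 without the second BRM014 library of Snf2hko cells.

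For Zdbf2 and Dlk1 the change in Snf2hko cells had the opposite sign to that in wild-type cells. Zdbf2 had 147 and 119 CPM with BRM014, against 73.0 and 56.5 CPM with DMSO in Snf2hko cells, and rose by 1.08 ± 0.16 (adjusted p = 0.000171), a difference in log2 change from wild-type cells of 1.67 ± 0.22 (adjusted p = 0.00027). Dlk1 had 4.98 and 3.93 CPM with BRM014, against 2.76 and 2.56 CPM with DMSO in Snf2hko cells, and rose by 0.78 ± 0.17. Its difference was 1.17 ± 0.24 (adjusted p = 0.000993). In wild-type cells of this batch Dlk1 had 4.63 and 4.65 CPM with BRM014, against 5.95 and 6.39 CPM with DMSO, and was not called.

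Peg10 in Snf2hko cells had 1253 and 1033 CPM with BRM014, against 320.1 and 271 CPM with DMSO, and rose by 2.00 ± 0.10. Sgce had 12.5 and 13.6 CPM with BRM014, against 6.04 and 6.03 CPM with DMSO, and rose by 1.16 ± 0.13, less than in wild-type cells by 0.77 ± 0.19 (adjusted p of the difference = 0.00378). Asb4 had 3.11 and 2.29 CPM with BRM014, against 0.571 and 0.562 CPM with DMSO, and rose by 2.29 ± 0.27. Plagl1 had 15.8 and 12.2 CPM with BRM014, against 6.59 and 6.01 CPM with DMSO, and rose by 1.20 ± 0.16. All 4 genes had every BRM014 library above both DMSO libraries.

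Dcn, which encodes the matrix proteoglycan decorin, was near 0 in most groups but had 0.865 and 1.26 CPM with BRM014 in Snf2hko cells, against 0 and 0.0675 CPM with DMSO. That is 87 counts with BRM014, against 3 with DMSO, a ratio of 31.1 with a counting interval of 10.3 to 154. The filter on low counts keeps a gene by the groups where it is high, and the BRM014 group compared is such a group. No p-value is therefore given for Dcn. The fitted log2 change of 4.86 was 3.95 without the first DMSO library and 8.38 without the second, which held all 3 counts, so that the last value is a fit against 0 and no bound. The extraembryonic endoderm markers summed to 1710 to 1985 CPM with BRM014, against 1420 to 1431 CPM with DMSO in Snf2hko cells. They did not all rise: of 8 tested 5 were higher and 1 lower, where 28.7% of all genes tested were higher and 28.2% lower. Sox7 had 12.8 to 15.9 CPM with BRM014, against 60.1 to 61.9 CPM with DMSO. The mesoderm and fibroblast markers (7 of 10 counted, with Col1a2, Col3a1 and Prrx1 at 0) summed to 16.3 to 17.0 CPM with BRM014, against 18.3 to 18.4 CPM with DMSO. Of the 5 markers of that list tested, 0 were called higher and 1 lower, beside the same shares over all genes. Thy1 fell to 1.14 to 1.54 CPM with BRM014, against 4.85 to 5.49 CPM with DMSO. Twist1, Mixl1 and Mesp1 also had lower means with BRM014, while T and the matrix genes Col1a1 and Lum had higher means. Col1a1 had 7.66 to 8.41 CPM with BRM014, against 5.38 to 6.38 CPM with DMSO (log2 change 0.50, adjusted p = 0.052, not called), and Lum had 15 counts with BRM014, against 0 with DMSO. Their part in the rise of Dcn was not tested.

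The first batch followed the BRM014 response in wild-type cells over time. At 1 h edgeR called 0 of 16 members, where 0.599% of all genes tested were called. At an unadjusted p under 0.05 there were 1119 genes and 1 member, Cdkn1c, and DESeq2 called 0 members. Cdkn1c had 158 and 138 CPM with BRM014 for 1 h, against 186 and 187 CPM with DMSO for 1 h.

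At 3 and 6 h no vehicle was taken, and BRM014 was set against the mean of the DMSO groups at 1 and 24 h. At 3 h 3 of 16 members were called, all lower, where 31.2% of all genes tested were called. At 6 h 7 of 16 were called, 1 higher and 6 lower, where 48.4% of all genes tested were called (24.9% higher and 23.5% lower). Both shares were at or under that of all genes.

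Ascl2 was the first member with a stable fall. It had 2.13 and 1.94 CPM at 3 h and 2.00 and 1.43 CPM at 6 h, against 2.81 and 4.41 CPM with DMSO for 1 h and 4.41 and 4.91 CPM with DMSO for 24 h. The log2 change was -0.96 ± 0.24 at 3 h (adjusted p = 0.00258) and -1.25 ± 0.25 at 6 h (adjusted p = 0.00012). All treated libraries lay below all vehicle libraries.

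Slc22a18 had 3.39 and 2.69 CPM at 3 h and 1.603 and 1.66 CPM at 6 h with BRM014, against 3.81 and 4.10 CPM with DMSO for 1 h and 3.01 and 2.64 CPM with DMSO for 24 h. It fell by 1.04 ± 0.22 at 6 h (adjusted p = 0.000227). Cdkn1c, in the same cluster, had 132 and 138 CPM at 6 h and was not called then. Copg2 had 77.3 and 79.8 CPM at 6 h with BRM014, against 96.5 and 95.2 CPM with DMSO for 1 h and 107 and 117 CPM with DMSO for 24 h, and fell by 0.40 ± 0.06 (adjusted p = 1.33e-06).

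Peg10 was not yet near its level at 24 h. It had 429 and 433 CPM at 3 h and 475 and 441 CPM at 6 h, and only the value at 6 h was called (0.46 ± 0.17, adjusted p = 0.0417), a call lost without either library at 6 h, either at DMSO 1 h or the first at DMSO 24 h (adjusted p = 0.0728 to 0.199) and against either DMSO group alone (adjusted p = 0.119 for 1 h and 0.0589 for 24 h). Sgce had 7.08 and 6.98 CPM at 6 h and Plagl1 4.67 and 5.04 CPM, and neither was called. Most of the rise of these 3 genes came between 6 and 24 h.

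Peg3 was called lower at 3 h (-0.17, adjusted p = 0.0409) and at 6 h (-0.15, adjusted p = 0.0494), and Zdbf2 at 6 h (-0.47, adjusted p = 0.01). The Peg3 calls were lost without either BRM014 library, the first DMSO library at 1 h or the second at 24 h (adjusted p = 0.0611 to 0.326 at 3 h and 0.106 to 0.169 at 6 h). The Zdbf2 call was lost without either BRM014 library (adjusted p = 0.0582 and 0.0662). Against DMSO for 1 h alone these calls were lost too, with log2 changes of -0.08 at 3 h and -0.07 at 6 h for Peg3 (adjusted p = 0.422 and 0.484) and -0.28 for Zdbf2 (adjusted p = 0.165).

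Grb10 was the member that moved most between the vehicle groups. It had 1059 and 1204 CPM with DMSO for 24 h, against 623 and 624 CPM with DMSO for 1 h, a rise of 0.89 ± 0.06 (adjusted p = 2.99e-11). Its calls at 3 h (-0.40 ± 0.05) and 6 h (-0.55 ± 0.05) also depended on the vehicle: set against DMSO for 1 h alone, its log2 change was 0.04 at 3 h (adjusted p = 0.647) and -0.11 at 6 h (adjusted p = 0.162). The DMSO groups differed in 3 of 16 members, where 18.5% of all genes tested were called. The others were Cdkn1c at -0.65 ± 0.15 (adjusted p = 0.00601), lost without the second library at 24 h (adjusted p = 0.0868), and Copg2 at 0.25, lost without the second library at 1 h or the second at 24 h (adjusted p = 0.0633 and 0.163).

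**Figure D4:**
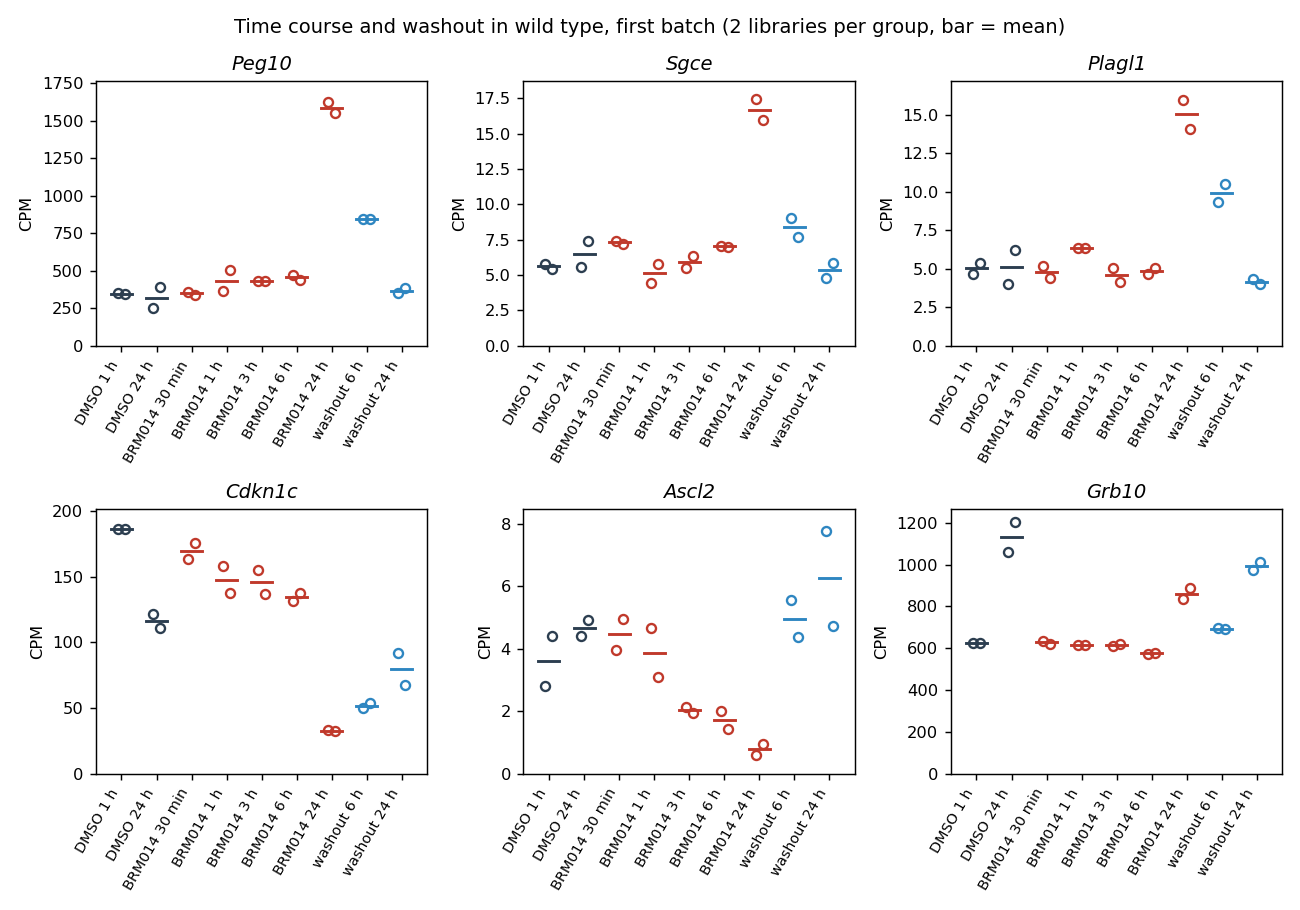
CPM of 6 imprinted genes in each wild-type library of the first batch: DMSO for 1 and 24 h, BRM014 for 0.5 to 24 h, and washout for 6 and 24 h. Peg10, Sgce and Plagl1 peak with BRM014 for 24 h, Cdkn1c and Ascl2 are lowest there, and Grb10 differs between the DMSO groups.

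The inactive analog, given at the same 10 µM for 24 h, was compared with DMSO and with BRM014 in the first batch. Both comparisons use the same analog libraries. Against DMSO the analog changed 4 of 16 members, where 18.4% of all genes tested were called. Nnat had 3.60 and 4.04 CPM with the analog, against 6.82 and 5.74 CPM with DMSO, and fell by 0.70 ± 0.16 (adjusted p = 0.00259). Its libraries did not overlap.

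The other 3 calls for the analog were less stable. Dlk1 had 4.87 and 2.75 CPM with the analog, against 7.28 and 6.67 CPM with DMSO (-0.86 ± 0.21, adjusted p = 0.00498), and was not called without the second analog library (adjusted p = 0.186). Ascl2 had 2.55 and 2.31 CPM with the analog, against 4.41 and 4.91 CPM with DMSO (-0.92 ± 0.26, adjusted p = 0.0122), lost without either analog library or the second DMSO library (adjusted p = 0.0501 to 0.101). Igf2r at 0.23 ± 0.07 (adjusted p = 0.0167) was lost without either analog library or the first DMSO library (adjusted p = 0.0571 to 0.254).

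Markers of other cell types moved with the analog as well. Of the 6 trophoblast markers tested 0 were higher and 3 lower (Ascl2, Plet1 and Eomes), where 18.4% of all genes tested were called in either direction. Their sums were 14.7 to 17.1 CPM with the analog, against 25.6 to 25.7 CPM with DMSO. Of the 8 extraembryonic endoderm markers tested 0 were higher and 4 lower, beside the same share over all genes, with sums of 251 to 254 CPM with the analog, against 377 to 469.9 CPM with DMSO. Their part in the changes of Ascl2 and the other members was not tested.

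BRM014 differed from the inactive analog at 24 h in 11 of 16 members, 4 higher and 7 lower, where 35.4% of all genes tested were called (17.3% higher and 18.1% lower). Peg10 had 1626 and 1547 CPM with BRM014, against 398 and 405 CPM with the analog (1.99 ± 0.21, adjusted p = 3.25e-06). Cdkn1c had 32.9 and 32.1 CPM with BRM014, against 142 and 104 CPM with the analog (-1.91 ± 0.16, adjusted p = 1.22e-07). Nnat had 2.21 and 2.00 CPM with BRM014, against 3.60 and 4.04 CPM with the analog (-0.84 ± 0.19, adjusted p = 0.000901). Ascl2 had 0.590 and 0.951 CPM with BRM014, against 2.55 and 2.31 CPM with the analog (-1.64 ± 0.35, adjusted p = 0.000532).

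So each of these 4 genes was set apart from the analog as well as from DMSO, with Nnat and Ascl2 at levels between the BRM014 and DMSO groups under the analog. Slc22a18, Sgce, Plagl1, Peg3, Copg2 and Grb10 were also called, with log2 changes of -1.46, 1.10, 1.09, -0.41, -0.64 and -0.39, and Slc22a18 was at -2.09 without the second BRM014 library. Dlk1 was called at 0.87 but not without the second analog library (0.50, adjusted p = 0.113). Not called were Phlda2, with a log2 difference of -0.29 and a 95% interval of -0.71 to 0.14, Igf2r at 0.06 (-0.07 to 0.20), Zdbf2 at 0.02 (-0.30 to 0.35), Zim1 and Asb4.

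BRM014 washout was compared with BRM014 for 24 h and with DMSO for 24 h. After 24 h of washout 12 of 16 members differed from BRM014 for 24 h, 7 higher and 5 lower, where 50.4% of all genes tested were called (25.8% higher and 24.6% lower), and each had moved in the direction of its level with DMSO. After 6 h of washout 11 of 16 differed, where 48.7% of all genes tested were called. Both comparisons share the BRM014 libraries. Against DMSO for 24 h, 3 of 16 members still differed after 24 h of washout, where 17.4% of all genes tested were called.

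Ascl2 had 5.54 and 4.37 CPM after 6 h of washout and 7.76 and 4.73 CPM after 24 h, against 0.590 and 0.951 CPM with BRM014, log2 changes of 2.64 ± 0.32 (adjusted p = 7.9e-08) and 2.96 ± 0.31. Its values at 6 h lay in the range of the DMSO libraries of this batch or above it. Peg10 had 843 and 845 CPM after 6 h and 353 and 382 CPM after 24 h, against 1626 and 1547 CPM with BRM014, log2 changes of -0.96 ± 0.20 (adjusted p = 0.00124) and -2.15 ± 0.21 (adjusted p = 8.77e-07). Plagl1 had 9.33 and 10.5 CPM after 6 h and 4.32 and 4.01 CPM after 24 h, against 16.0 and 14.07 CPM with BRM014, log2 changes of -0.65 and -1.89 that were both called. Peg10 and Plagl1 were thus partway down at 6 h.

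Nnat and Cdkn1c were still below all vehicle libraries of the batch after 6 h. Nnat had 2.34 and 2.13 CPM after 6 h of washout, against 2.21 and 2.00 CPM with BRM014, and was not called, and it had 4.22 and 3.64 CPM after 24 h, which was called (0.85 ± 0.19). Cdkn1c had 49.9 and 53.5 CPM after 6 h and 92.0 and 67.5 CPM after 24 h, against 32.9 and 32.1 CPM with BRM014, log2 changes of 0.62 ± 0.17 (adjusted p = 0.00553) and 1.25 ± 0.16 (adjusted p = 9e-06). Copg2 and Grb10 had moved away from their level with DMSO for 24 h at 6 h of washout. Copg2 had 67.2 and 62.9 CPM then, against 79.5 and 73.6 CPM with BRM014 (-0.28, called), and Grb10 had 695 and 692 CPM, against 833 and 889 CPM with BRM014 (-0.36, called).

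After 24 h of washout Nnat and Cdkn1c were still below DMSO for 24 h. Nnat was lower by 0.69 ± 0.16 (adjusted p = 0.00339), a call lost without the second washout library (adjusted p = 0.0604). Cdkn1c was lower by 0.56 ± 0.15 (adjusted p = 0.0184), a call lost without the second washout library or either DMSO library (adjusted p = 0.0859 to 0.192). The third such member, Grb10, was lower by 0.20 ± 0.06 (adjusted p = 0.0183), a call lost without the first washout or the second DMSO library (adjusted p = 0.146 and 0.464).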

How the data were processed

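Total RNA was sequenced from 38 libraries of mouse embryonic stem cells, prepared with a stranded total RNA kit per the labels' protocols. The authors deposited a table of raw counts per gene (55385 genes, of which 55144 IDs are in GENCODE M21). Per the submitters' processing notes the tools were bcl2fastq 2.17 and STAR with GRCm38 (mm10); the program that counted, with its strand setting and gene models, is not given in the sources used here. All 42 members and the other lists were chosen with earlier results of these data known. From the counts, CPM over library totals and RPKM over the deposited exon lengths were computed. Tests used edgeR 4.0.16 in R 4.3.3 (TMM scaling, filterByExpr, quasi-likelihood F-test, robust), fitted over all genes: 12517 genes in 26 libraries of the first batch, 13130 in 12 libraries of the second and 11787 in the 8 wild-type 24 h libraries of both. They had biological coefficients of variation of 6.2%, 6.6% and 9.2%. The steps were tested on simulated data for some of the comparisons, with changes planted only in genes above a set level. That run does not cover members at low levels or tests of the difference between BRM014 changes. Called means an adjusted p under 0.05. Members with too few counts were not tested: Dcn, Rasgrf1 and Slc22a3 in the first batch and in the fit over both, and Slc22a3 in the second batch. Alternatives were DESeq2 1.42.0, no filter, only the compared libraries, other vehicles, a replicate block and leaving out each library. Per-library values are given for members with a called change of at least 2-fold between a line and wild type or with BRM014 in wild-type cells, and for the strongest member of each cluster; other members named were chosen after their values were seen. The replicates of every group differed by more than sampling noise. Total counts per library set the precision, and bounds and ratio intervals cover counting error only. Sequences are from RefSeq (GRCm38.p6).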

Additional observations from a re-analysis of the deposited data

Results flagged for a closer look

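In the groups of 4 wild-type libraries at 24 h, 38 gene and group combinations were examined for a library far from the other 3, and 4 were found. Chance gives about 1 in 20 where all 4 libraries have counts, but for 3 of the 4 the result is fixed by the zeros in the other libraries. Slc22a3 had 0.0254 CPM in 1 DMSO library and 0.0245 CPM in 1 BRM014 library, with 0 in the others. Zim1 had 1.10 CPM in 1 BRM014 library, above the other 3. Dcn had 0.0456 CPM in 1 BRM014 library, with 0 in the others.

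The BRM014 change in log2 units differed between genotypes or batches, by a test of the difference, for these members. Between Ino80ko and wild-type cells it differed by -1.36 for Cdkn1c and by -1.41 for Phlda2. Between Snf2hko and wild-type cells it was further toward higher values for Nnat by 1.18, Cdkn1c by 1.34, Peg3 by 0.71, Peg10 by 0.45, Asb4 by 1.39, Dlk1 by 1.17 and Zdbf2 by 1.67. It was further toward lower values for Slc22a18 with -2.09, Ascl2 with -1.77, Sgce with -0.77 and Grb10 with -0.31. For Dcn the fitted difference was 7.02, but it rests on few counts and was 2.25 (adjusted p = 0.936, edgeR) without the second wild-type DMSO library and 5.68 to 10.5 without other single libraries.

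Without single libraries the difference for Peg10 was 0.28 to 0.37 and not called in 4 cases, the first BRM014 and second DMSO libraries of Snf2hko cells and the second BRM014 and second DMSO libraries of wild-type cells. For Asb4 the call was lost in 4 cases as well, without the first BRM014 library or either DMSO library of Snf2hko cells or the first DMSO library of wild-type cells. Between the second and the first batch the change in wild-type cells differed by -1.21 for Cdkn1c and by 0.50 for Grb10.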

How the results depend on the processing

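Of 146 called member results, 109 kept their direction and their call in every setting run and 37 lost the call in at least 1. Of 1452 values recomputed, 1334 kept both, 117 kept the direction without the call (90 of them with 1 library left out) and 1 reversed: Grb10 with BRM014 for 3 h was at 0.0439 on the log2 scale against DMSO for 1 h alone. The cause of these shifts was not tested.

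Counts of members called moved by over 1.5 times in these cases. The test between batches, with 2 calls, gave 4 with no filter on low counts and 1 to 6 with 1 library left out. The difference in BRM014 change between Ino80ko and wild-type cells, with 2, gave 4 with DESeq2. BRM014 for 1 h, with 0, gave 2 with no filter. BRM014 for 3 h, with 3, gave 1 against DMSO for 1 h alone, 5 against DMSO for 24 h alone and 2 to 5 with 1 library left out. BRM014 for 6 h, with 7, gave 4 to 7, and the inactive analog, with 4, gave 1 to 5. Washout for 24 h against DMSO, with 3, gave 6 with no filter, 1 with only the compared libraries and 1 to 4 with 1 library left out. DMSO for 24 h against 1 h, with 3, gave 5 with no filter and 1 to 6 with 1 library left out.

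Over all genes, the calls between batches went to 632 from 408 with no filter, and those at 1 h to 154 from 75 with no filter and to 49 with only the compared libraries. With only the compared libraries the calls were 996 in place of 2306 for the inactive analog, 655 in place of 2181 for washout against DMSO, and 895 in place of 2320 between the DMSO groups.

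The labels do not say that replicate numbers pair samples. Replicate differences correlated with r from -0.489 to 0.602 over 78 pairs of groups in the first batch and from -0.204 to 0.498 over 7 in the second. With the replicate block, 15 comparisons moved by at most 1 member call, with 121 calls kept and 1 lost, Peg3 at 6 h (adjusted p = 0.051). No paired analysis was possible for the lines against wild type, because they share no replicate numbers, nor for the difference between batches. Depth limits the members near 0, Dcn, Rasgrf1, Slc22a3, Zim1 and Asb4, whose levels rest on few counts.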

Other observations

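Imprinted genes outside the 42 and genes that keep imprints were counted as well, from lists chosen with earlier results known. Of 40 further imprinted genes 22 had counts and 15 were tested in the second batch. Against wild type 6 were higher and 2 lower in Ino80ko cells, where 22.1% of all genes tested were higher and 22.9% lower. Among the higher ones were Begain (1.51 ± 0.22 on the log2 scale, edgeR adjusted p = 2.12e-05), a neighbour of Dlk1, and Pon2 (1.01 ± 0.08, adjusted p = 9.96e-09), a paraoxonase near Peg10. The 2 lower genes are not named here. In Snf2hko cells 4 were higher and 7 lower, where 28.9% of all genes tested were higher and 27.7% lower. Among the higher ones was Osbpl5 (1.15 ± 0.14, adjusted p = 1.11e-06), a lipid transfer protein of the Kcnq1ot1 region. The 7 lower genes, the larger part, are not named here. With BRM014 in wild-type cells 4 of 15 were higher and 9 lower, where 24.8% of all genes tested were called in each direction. Cobl and Ddc, neighbours of Grb10, fell by 1.56 ± 0.09 (adjusted p = 1.4e-09) and 1.67 ± 0.11 (adjusted p = 3.44e-09), and Pon2 rose by 1.08 ± 0.08 (adjusted p = 9.97e-09).

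Of 20 genes for imprint upkeep 12 had counts and were tested, and Zfp445, Dnmt1, Arid4b, Smchd1, Ehmt1, Tet1, Tet3 and Eed were listed at 0. In Ino80ko cells 3 were higher and 5 lower, beside the shares over all genes given above (22.1% and 22.9%). Dnmt3l, a cofactor of DNA methylation in the germ line, had 101 and 106 CPM in Ino80ko cells, against 345 and 373 CPM in wild-type cells, and fell by 1.78 ± 0.07 (adjusted p = 4.95e-13). Dppa3, which protects maternal imprints in the zygote, had 0.836 and 0.892 CPM in Ino80ko cells, against 7.84 and 8.98 CPM in wild-type cells, and fell by 3.27 ± 0.18 (adjusted p = 7.86e-11). Zfp57 had 872 and 933 CPM in Ino80ko cells, against 426 and 496 CPM in wild-type cells, and rose by 0.98 ± 0.09 (adjusted p = 4.44e-08).

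In Snf2hko cells 0 of the 12 upkeep genes were higher and 9 lower, where 28.9% of all genes tested were higher and 27.7% lower, among them Dppa3 by 2.56 ± 0.17 (adjusted p = 2.01e-10) and Dnmt3a, a de novo DNA methyltransferase, by 0.84 ± 0.07 (adjusted p = 1.49e-08). With BRM014 in wild-type cells 4 were higher and 3 lower, where 24.8% of all genes tested were called in each direction. Dnmt3a fell by 1.12 ± 0.07 (adjusted p = 2.57e-09), and Trim28, the corepressor that works with Zfp57, rose by 0.64 ± 0.06 (adjusted p = 3.54e-07). DNA methylation was not analysed here.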
